A study of Mus musculus with 6 samples.

Results

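The transcripts described here were counted on 300 processed pseudogenes in macrophages that had received extracellular vesicles (EVs). They were all the genes with the biotype processed_pseudogene with a mean of at least 3 CPM over the 6 libraries (CPM is a count scaled to the total of its library). They were taken from 9997 annotated processed pseudogenes, of which 2885 had at least 1 count, and from 57010 genes in all. The members were selected on their mean level over both groups. The cells were RAW 264.7, a macrophage line from mouse, activated with lipopolysaccharide and afterwards treated with vesicles from tendon stem cells. In the hypoxic-EV group (3 libraries) the stem cells had been preconditioned in hypoxia, and in the normoxic-EV group (3 libraries) they had been kept in normoxia. Both groups had received lipopolysaccharide and vesicles, and both are the same cell line, with no deletion or transgene named in the labels. Poly(A) RNA was sequenced.

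A processed pseudogene, or retrocopy, arises when the mRNA of a parent gene is reverse transcribed and inserted back into the genome. Such copies lack introns and usually the parent's promoter, and highly expressed genes such as those for ribosomal proteins and glycolytic enzymes have many of them. A read that matches both the copy and the spliced parent mRNA can be placed on either, so counts on a retrocopy may hold reads of its parent.

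The closeness of copy and parent is shown by stretches of 90 bases from pairs that the results turn on, read 5′ to 3′ from GENCODE release M21 transcripts (build GRCm38) matched by gene identifier. Each stretch lies within the coding region of the parent, and capitals mark the bases at which copy and parent differ. The copies of Gapdh (a glycolytic enzyme), Hspa8 (a cytosolic chaperone) and Rpl12 (a protein of the large ribosomal subunit) each differ at 1 base of the stretch. Stretches without a difference were passed over. Over the aligned length the identities were 99.9% for Gm13394, 99.74% for Gm15459 and 99.2% for Gm11425.
Gm13394: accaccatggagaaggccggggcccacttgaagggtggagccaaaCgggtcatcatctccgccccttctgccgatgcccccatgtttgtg
Gapdh: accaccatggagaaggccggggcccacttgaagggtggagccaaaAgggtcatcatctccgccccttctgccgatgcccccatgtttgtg
Gm15459: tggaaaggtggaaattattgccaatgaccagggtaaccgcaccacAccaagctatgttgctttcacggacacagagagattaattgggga
Hspa8: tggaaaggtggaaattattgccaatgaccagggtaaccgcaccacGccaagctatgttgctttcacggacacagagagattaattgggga
Gm11425: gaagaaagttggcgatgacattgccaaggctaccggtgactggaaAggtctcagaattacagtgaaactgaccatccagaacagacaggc
Rpl12: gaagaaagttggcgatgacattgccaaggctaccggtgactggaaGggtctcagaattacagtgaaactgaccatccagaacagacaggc
The copies of Camsap1 (a protein that binds microtubule minus ends) and Ankrd37 (an ankyrin repeat protein) have diverged further and differ at 5 and 9 bases.
Gm19026: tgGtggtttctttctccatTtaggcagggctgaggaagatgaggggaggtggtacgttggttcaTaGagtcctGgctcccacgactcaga
Camsap1: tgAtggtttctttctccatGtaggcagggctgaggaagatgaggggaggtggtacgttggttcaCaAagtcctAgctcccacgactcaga
Gm28188: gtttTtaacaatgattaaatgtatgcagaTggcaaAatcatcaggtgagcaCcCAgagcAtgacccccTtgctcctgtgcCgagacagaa
Ankrd37: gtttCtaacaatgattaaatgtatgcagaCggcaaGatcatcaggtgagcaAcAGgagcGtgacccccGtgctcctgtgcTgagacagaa

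A parent gene was found for 299 of the 300 pseudogenes, 86 of them by symbol, 1 by its description and 212 by the best sequence match. The identity of copy and parent had a median of 99.33% and ran from 83.93% to 100%. It was at least 99% for 180 pseudogenes, of which 46 were identical over the aligned length, and under 95% for 14. The 299 copies traced to 232 parents, and 41 parents had at least 2 copies. For 4 copies, more than 1 gene matched equally well. Ribosomal protein genes were the largest family of parents, with 93 copies. Families were set by patterns of parent symbols, so each holds only the parents that its patterns matched. The parents of 113 copies matched none of them, and some of these have roles like those of a named family. Within the set, 149 pseudogenes had 3 to 10 CPM, 129 had 10 to 100 CPM and 22 had at least 100 CPM. The 10 pseudogenes of highest level held 49.4% of the counts on the set. Just inside the limit stood Gm14253, Gm12693 and Gm12070 with 3.007, 3.024 and 3.069 CPM, and just outside it Oaz1-ps, Crry-ps and Gm10241 with 2.985, 2.974 and 2.952 CPM.

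Library totals ran from 16751665 to 23422328 counts. Of 10 macrophage markers, 9 were above 1 CPM, and their summed level was 8480 to 8880 CPM in hypoxic-EV libraries and 10500 to 10900 CPM in normoxic-EV libraries. All 10 markers of tendon and stromal cells, the source of the vesicles, stood at or under 1 CPM, with Col1a2, Col3a1, Tnmd and Thbs4 at 0. All 5 lymphocyte markers and all 4 epithelial markers also stood at or under 1 CPM. Most of this sum was Lyz2, the macrophage lysozyme gene, with a mean of 6083 CPM in hypoxic-EV and 7936 CPM in normoxic-EV. The markers moved in both directions: Lyz2, Adgre1, Fcgr1, Ptprc, Spi1 and Cd14 were lower, Csf1r and Itgam were higher, and Cd68 did not pass the edgeR test (log2 fold change -0.04, adjusted p = 0.464). Csf1r, the receptor of the macrophage growth factor, had 351.3 ± 13.3 CPM in hypoxic-EV and 173.5 ± 6.92 CPM in normoxic-EV (SD, n = 3 each), a log2 fold change of 1.02 (adjusted p = 6.93e-13 by edgeR). The calls of Itgam and Cd14 ended without normoxic-EV replicate 1 (adjusted p = 0.0915 and 0.0673 by edgeR), that of Itgam also without hypoxic-EV replicate 2 (0.106) and that of Cd14 without normoxic-EV replicate 2 (0.0552). The part of these markers in the results was not tested, and in bulk RNA fewer cells of a type and less RNA per cell cannot be told apart. Whether a group's libraries are separate cultures is not given in the labels, and the p-values therefore cover only the variation among these libraries, which could be technical.

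Processed pseudogenes took a larger share of the counts in macrophages given hypoxic-EV. Of all counts in a library, the 300 pseudogenes held 1.409%, 1.387% and 1.456% in the hypoxic-EV libraries, against 1.255%, 1.23% and 1.24% in the normoxic-EV libraries. All 3 hypoxic-EV libraries stood above all 3 normoxic-EV libraries. The means were 1.417 ± 0.0352% in hypoxic-EV and 1.242 ± 0.0126% in normoxic-EV (SD, n = 3 each), a ratio of 1.14 and a difference of 0.176 percentage points. This share has no test, because it is a sum over chosen genes. Without Gm13394, the copy of Gapdh with the highest level, the difference was 0.131 percentage points.

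**Figure D1:**
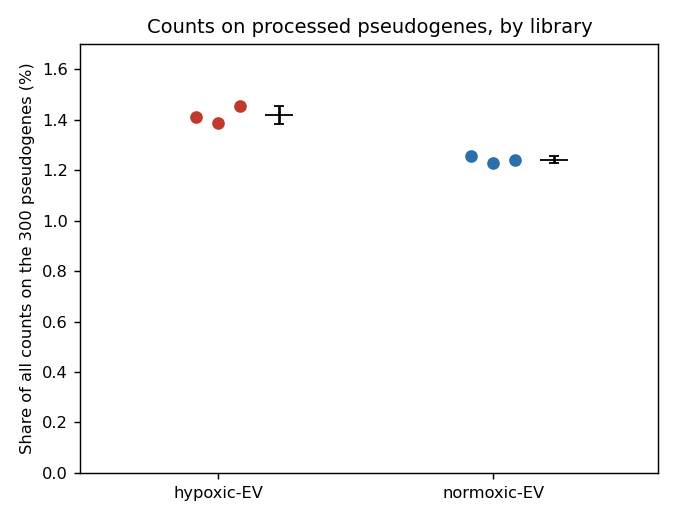
Share of each library's counts held by the 300 processed pseudogenes, in percent, for each of the 3 hypoxic-EV and 3 normoxic-EV libraries (points), with the mean and SD of each group (bar and whiskers). The hypoxic-EV libraries lie between 1.387% and 1.456% and the normoxic-EV libraries between 1.23% and 1.255%.

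Of the 300 pseudogenes, 299 had enough counts to be tested, and 82 were higher and 20 lower in hypoxic-EV. A call means an adjusted p under 0.05 in the quasi-likelihood test of edgeR, with adjustment over all 13303 genes tested. Calls in either direction were made for 34.1% of the pseudogenes and 44.2% of all genes. The members called higher were 27.4% of those tested, against 22.7% of all genes and 26.8% of the 9976 protein-coding genes of at least 3 CPM. The members called lower were 6.69%, against 21.5% of all genes and 23.7% of those protein-coding genes. The share called higher was thus near the background, and the share called lower stood below it. The pseudogenes had a median of 193 counts per library and those protein-coding genes 818, and the part of this depth in the shares was not tested. Groups did not overlap in 37.1% of the pseudogenes and in 52.8% of all genes. The pseudogenes without overlap were higher in 27.4% and lower in 9.7%, against 26.6% and 26.1% of all genes. The median log2 fold change was 0.11 for the pseudogenes, with 200 above and 99 below 0, against -0.0011 for all genes and 0.01 for the protein-coding genes. Processed pseudogenes that were tested with under 3 CPM were called higher in 10.1% and lower in 4.09% of 367. Changes of 2-fold were few: 3 of the called pseudogenes were at least 2-fold lower, and none of those called reached a 2-fold increase. Calls with a change of at least 2-fold in either direction were also few elsewhere, 535 of the 13303 genes and 245 of the 9976 protein-coding genes. The median absolute log2 fold change of those called was 0.43 for the pseudogenes, 0.36 for all genes and 0.33 for the protein-coding genes.

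Copies of glycolysis genes had the highest median change of the families of parents, 0.52 on the log2 scale. In hypoxic-EV 9 of 11 were higher and none of the 11 was lower, and of the 16 glycolysis genes tested 15 were higher and 0 lower, with a median of 0.62. Gm13394, a copy of Gapdh on chromosome 2 (28823622 to 28824621, GRCm39), had 1525, 1256 and 1564 CPM in hypoxic-EV, against 1008, 1019 and 979.9 CPM in normoxic-EV. Its groups did not overlap, and its log2 fold change was 0.53 (SE 0.0623, adjusted p = 5.58e-07 by edgeR). Gm13394 lies inside Cfap77 on the same strand, which had 0.471 CPM in hypoxic-EV and 0.212 CPM in normoxic-EV. Gm4735 is an enolase copy whose best match among protein-coding genes was Eno1b. Whether its source was Eno1b or the enolase gene Eno1 was not tested. Gm4735 had 665.1, 686.5 and 708.4 CPM in hypoxic-EV, against 437.5, 422.6 and 429.8 CPM in normoxic-EV. This was a log2 fold change of 0.68 (SE 0.0451, adjusted p = 1.22e-10 by edgeR), with no overlap. Gm6560, a copy of the pyruvate kinase gene Pkm, had a log2 fold change of 0.68 too, at a much lower level (35.1 ± 2.89 CPM in hypoxic-EV, 21.96 ± 0.375 CPM in normoxic-EV).

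Ldha-ps2, a copy of the lactate dehydrogenase gene Ldha, had the largest increase of the called pseudogenes. It had 9.548, 9.788 and 10.36 CPM in hypoxic-EV, against 5.676, 5.307 and 4.793 CPM in normoxic-EV. Its log2 fold change was 0.92 (SE 0.121, adjusted p = 2.48e-06 by edgeR), and that of Ldha was 0.73. The 5 copies of Gapdh had log2 fold changes from 0.29 to 0.58, and 4 of them passed the test. Gm12070, the Gapdh copy of lowest level, had 3.242, 2.243 and 4.556 CPM in hypoxic-EV and 1.852, 4.257 and 2.263 CPM in normoxic-EV, values that overlap. The other glycolysis copy that did not pass was Pgk1-rs7, a copy of the phosphoglycerate kinase gene (0.32, adjusted p = 0.0928 by edgeR).

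Copies of genes for chromatin and nuclear transport proteins had a median log2 fold change of 0.47, with 11 of 14 higher and 0 lower. Of the 70 genes of this family tested, 34 were higher and 12 lower, with a median of 0.14. The 14 copies came from 7 of these genes. The family does not hold every chromatin gene. Hdac1, Smarca5 and Smarce1, which its symbol patterns did not match, had 2 copies each, and none of these copies passed the test. Their log2 fold changes ran from -0.13 for a Smarce1 copy to 0.34 for a Smarca5 copy. Gm4204, a copy of the histone chaperone gene Nap1l1, had 161.2, 185.7 and 174.1 CPM in hypoxic-EV, against 123.8, 119.5 and 125.3 CPM in normoxic-EV. Its log2 fold change was 0.50 (SE 0.0527, adjusted p = 1.3e-07 by edgeR), and no hypoxic-EV library reached down to the normoxic-EV libraries. Gm4739, a copy of the high mobility group gene Hmgb2, had 22.3 ± 2.18 CPM in hypoxic-EV and 14.1 ± 0.291 CPM in normoxic-EV, a log2 fold change of 0.67. Gm9800, a copy of the prothymosin gene Ptma, also had a log2 fold change of 0.67. All 4 copies of Hmgb1, which encodes a DNA-bending protein that is also released as a danger signal, were higher, with log2 fold changes from 0.29 to 0.60. Of 4 copies of the nucleolar gene Npm1, 3 were higher, and Gm6477 did not pass (0.29, adjusted p = 0.0563 by edgeR). A copy of the nuclear transport GTPase gene Ran, Gm13461, had 0.03 (adjusted p = 0.888 by edgeR), while Ran itself had 0.31 (adjusted p = 1.95e-05 by edgeR).

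Among copies that symbol patterns placed in the chaperone and prolyl isomerase family, 4 of 8 were higher and 0 lower, with a median of 0.40. The patterns did not match the prolyl isomerase gene Pin4, whose copy Pin4-ps was lower and is described further below. The genes of this family had 29 of 102 higher and 21 lower, with a median of 0.07. Gm15459, a copy of Hspa8, had 757.2, 812.9 and 770.7 CPM in hypoxic-EV, against 462.6, 462.0 and 465.3 CPM in normoxic-EV. The gap between the groups was far wider than the spread within either, with a log2 fold change of 0.75 (SE 0.0454, adjusted p = 2.46e-11 by edgeR). The second Hspa8 copy, Gm8355, had a log2 fold change of 0.80 at 8.2 ± 0.5 CPM in hypoxic-EV and 4.7 ± 0.342 CPM in normoxic-EV. Of 2 copies of Ppia, the cyclophilin A gene, Gm10123 was higher (0.31, adjusted p = 0.00759 by edgeR), and Gm13493 did not pass (0.34, adjusted p = 0.061 by edgeR). The call of Gm10123 ended without hypoxic-EV replicate 3 or normoxic-EV replicate 3 (adjusted p = 0.0709 and 0.0719 by edgeR).

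Copies that symbol patterns placed in the RNA-binding and splicing family had 9 of 23 higher and 0 lower, with a median of 0.26. The patterns did not match every RNA-binding gene, among them Sarnp, whose copy Gm6563 was lower and is described further below. Of the 126 genes of the family 51 were higher and 15 lower. Gm10052, identical to Hnrnpa1 over the aligned length, had 38.19, 38.9 and 39.07 CPM in hypoxic-EV, against 29.04, 25.77 and 25.87 CPM in normoxic-EV. Its log2 fold change was 0.53 (SE 0.0685, adjusted p = 2.14e-06 by edgeR), beside 0.56 for Hnrnpa1. All 4 copies of Hnrnpa3, another packaging protein of nascent RNA, were higher, from 0.27 to 0.63. Gm16580, a copy of the poly(A)-binding protein gene Pabpc1, had a log2 fold change of 0.70. It lies inside Luc7l on the same strand, which had -0.04 (adjusted p = 0.562 by edgeR). Cytoskeleton copies were few: 3 of 6 were higher and 1 lower, and of the 57 genes of this family 15 were higher and 8 lower. Gm11223, a copy of the stathmin gene Stmn1, had 8.664, 9.278 and 7.35 CPM in hypoxic-EV, against 3.585, 5.365 and 5.459 CPM in normoxic-EV, a log2 fold change of 0.79 (SE 0.152, adjusted p = 0.000231 by edgeR). Actr3-ps, a copy of an Arp2/3 complex gene, was the lower member of the family (-0.25, adjusted p = 0.0165 by edgeR). Its call ended without hypoxic-EV replicate 1 or normoxic-EV replicate 3 (adjusted p = 0.0769 and 0.0688 by edgeR) and with DESeq2 (adjusted p = 0.0607).

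**Figure D2:**
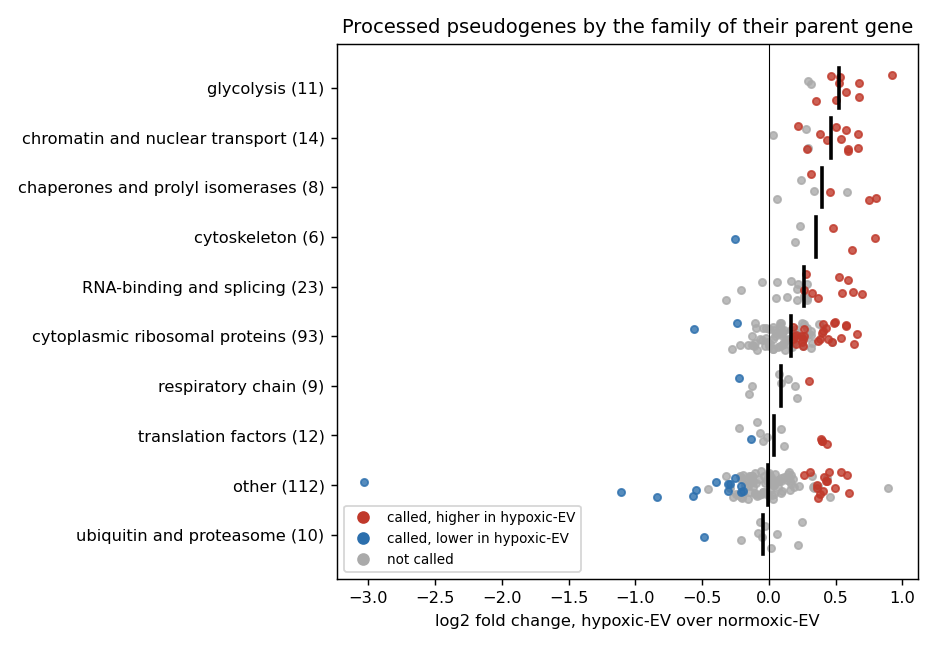
Log2 fold change of each tested processed pseudogene, hypoxic-EV over normoxic-EV, by the family of its parent gene; the number of tested copies is in parentheses and the black bar is the family's median. Medians run from 0.52 for glycolysis to -0.04 for ubiquitin and proteasome, and a single copy in the other family lies at -3.04.

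The 93 copies of ribosomal protein genes held between 0.638% and 0.675% of the counts of each hypoxic-EV library and between 0.579% and 0.601% of those of each normoxic-EV library, the largest share of any family of parents. In hypoxic-EV 26 were higher and 2 lower, with a median log2 fold change of 0.16, and of the 87 ribosomal protein genes tested 40 were higher and 5 lower, with a median of 0.13. The calls were spread unevenly over the parents. All 4 copies of Rpl23a (0.37 to 0.58) and all 4 copies of Rpl6 (0.25 to 0.43) were higher, whereas none of 4 copies of Rplp0 (0.0003 to 0.13) and none of 4 copies of Rpl7a (-0.11 to 0.27) passed the test. Rpl3-ps1, a copy of a gene of the large subunit, had 444.4, 387.7 and 442.5 CPM in hypoxic-EV, against 296.3, 307.2 and 316.0 CPM in normoxic-EV. This copy had the lowest p of the family, with a log2 fold change of 0.47 (SE 0.0528, adjusted p = 3.08e-07 by edgeR). Gm8730, the highest copy of Rplp0, had 1192, 1039 and 1259 CPM in hypoxic-EV and 1177, 1145 and 1168 CPM in normoxic-EV, so its groups overlapped (adjusted p = 0.997 by edgeR).

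Gm11425, a copy of Rpl12 with an identity of 99.2%, was the ribosomal protein copy with the largest decrease. It had 8.074, 8.106 and 7.822 CPM in hypoxic-EV, against 12.55, 11.08 and 11.81 CPM in normoxic-EV. Its log2 fold change was -0.56 (SE 0.105, adjusted p = 0.000173 by edgeR), and that of Rpl12 was 0.16 (adjusted p = 0.00819 by edgeR). Of the 100 called pseudogenes with a tested parent, Gm11425 was the single copy called against the direction of a called parent, and the call of Rpl12 ended without normoxic-EV replicate 2 (adjusted p = 0.0515 by edgeR).

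Of 12 copies of translation factor genes 4 were higher and 1 lower, and of the 70 genes of this family 26 were higher and 10 lower. Gm6863, a copy of the nascent chain binding gene Naca, had a log2 fold change of 0.39 (adjusted p = 7.83e-06 by edgeR). Gm13456, a copy of the elongation factor gene Eef1a1, had 0.44 (adjusted p = 0.000785 by edgeR), and the second Eef1a1 copy, Gm6548, had -0.07 (adjusted p = 0.678 by edgeR). Of 9 respiratory chain copies, Gm10250 (Atp5h) was higher and Gm10221 (Atp5l) lower, and of the 105 genes of this family 35 were higher and 11 lower. The call of Gm10221 ended without normoxic-EV replicate 1 (adjusted p = 0.06 by edgeR). That of Gm10250 ended with DESeq2 (adjusted p = 0.115) and without any single library except hypoxic-EV replicate 1 (adjusted p from 0.0506 to 0.213 by edgeR). Of 10 ubiquitin and proteasome copies, Gm9762, a copy of the ubiquitin-conjugating enzyme gene Ube2d2a, was lower (-0.48, adjusted p = 0.00838 by edgeR), and 9 did not pass. The 103 genes of this family had 21 higher and 29 lower.

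Gm19026 had the largest change of the 299 tested pseudogenes. This copy of Camsap1 on chromosome 1 (6499879 to 6511520, minus strand, GRCm39) had 4.774, 6.117 and 5.63 CPM in hypoxic-EV, against 42.78, 49.16 and 44.47 CPM in normoxic-EV. Each normoxic-EV library lay far above each hypoxic-EV library. It was 8.2-fold lower in hypoxic-EV, with a log2 fold change of -3.04 (SE 0.0939, adjusted p = 3.19e-15 by edgeR). Camsap1 had 65.77, 67.24 and 69.97 CPM in hypoxic-EV, against 66.68, 61.58 and 60.36 CPM in normoxic-EV, which overlap (log2 fold change 0.11, adjusted p = 0.122 by edgeR). The copy overlaps no other annotated gene body, and its identity with Camsap1 was 94.43%.

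Gm1943, a short copy of 174 bases identical to the WD repeat gene Wdr70, had 2.593, 2.294 and 2.794 CPM in hypoxic-EV, against 5.258, 6.065 and 5.37 CPM in normoxic-EV. Its groups did not overlap (log2 fold change -1.11, SE 0.158, adjusted p = 7.48e-06 by edgeR), and Wdr70 had -0.41 (adjusted p = 3.19e-06 by edgeR). ENSMUSG00000094054, a pseudogene on an unplaced scaffold with no parent found, had 3.418, 2.141 and 2.02 CPM in hypoxic-EV, against 4.362, 5.307 and 5.548 CPM in normoxic-EV (log2 fold change -1.04, SE 0.191, adjusted p = 0.000149 by edgeR). In the authors' deposited table of 462 genes, 15 are processed pseudogenes, and 3 of the 300 are among them, all lower. The authors' deposited table gives Gm19026 -3.04, Gm1943 -1.11 and ENSMUSG00000094054 -1.02 on the log2 scale, with adjusted p-values of 1.18e-136, 8.57e-06 and 0.000303.

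Smaller decreases were found in copies of genes with varied roles. Pin4-ps, a copy of a prolyl isomerase gene, had 2.534, 2.753 and 2.923 CPM in hypoxic-EV, against 4.421, 6.356 and 4.083 CPM in normoxic-EV (log2 fold change -0.84, adjusted p = 0.000829 by edgeR). Atp6v0c-ps2, a copy of the gene for the proteolipid subunit of the vacuolar proton pump, had 102.4, 73.56 and 104.3 CPM in hypoxic-EV, against 142.0, 137.7 and 129.5 CPM in normoxic-EV (log2 fold change -0.54, adjusted p = 2.4e-05 by edgeR). Its parent Atp6v0c had -0.67 on the same scale, so copy and parent were both lower. Rbpj-ps3, a copy of the gene for the DNA-binding factor of Notch signalling, had -0.31 (adjusted p = 9.46e-05 by edgeR), and Rbpj itself had -0.31. Gm7993, the highest of 4 copies of the polyamine enzyme gene Odc1, had 423.9, 421.6 and 449.1 CPM in hypoxic-EV, against 527.3, 513.1 and 501.2 CPM in normoxic-EV. Its log2 fold change was -0.25 (adjusted p = 0.000129 by edgeR), beside -0.26 for Odc1, and the other 3 copies did not pass. Llph-ps2 was lower too (-0.57, adjusted p = 0.0156 by edgeR), with groups that overlap. Its call ended without hypoxic-EV replicate 1, hypoxic-EV replicate 3 or normoxic-EV replicate 3 (adjusted p = 0.0654, 0.0732 and 0.129 by edgeR). Among copies outside the families that were higher, all 3 copies of the serine synthesis gene Phgdh lay between 0.36 and 0.43.

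**Figure D3:**
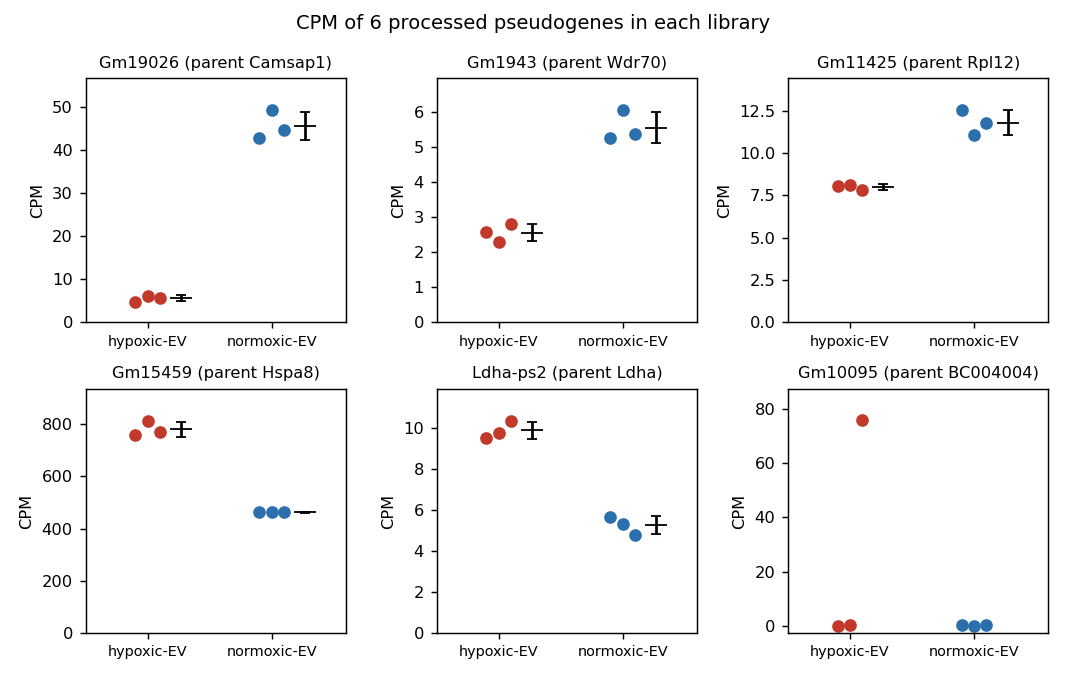
CPM of 6 processed pseudogenes in each hypoxic-EV (red) and normoxic-EV (blue) library, with the mean and SD of 3 libraries beside the points except for Gm10095. Gm19026, Gm1943 and Gm11425 are lower and Gm15459 and Ldha-ps2 higher in hypoxic-EV, each without overlap, and Gm10095 is high in a single library.

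Gm10095, a copy of BC004004 on chromosome 12, belonged to the set through a single library. It had 0, 0.102 and 75.95 CPM in hypoxic-EV, against 0.239, 0.0583 and 0.178 CPM in normoxic-EV. Hypoxic-EV replicate 3 alone stood high, and a count of 0 in replicate 1 allows up to 0.177 CPM (3 counts, counting error only). Gm10095 did not pass the filter on low counts and was not tested. Without it, the difference in the share of counts on the set was 0.173 percentage points.

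Copies and their parents had similar changes. Across the 295 pairs in which both were tested, the log2 fold changes had a Pearson correlation of 0.567 and a Spearman correlation of 0.734, given as a description because pairs share libraries, parents and possibly reads. The median absolute difference between copy and parent was 0.0912 on the log2 scale, and 239 pairs had the same sign. Of the 100 called copies with a tested parent, 87 had a parent called in the same direction, 12 had a parent that was not called and 1 had a parent called in the opposite direction. For comparison, 26.8% of the protein-coding genes of at least 3 CPM were called higher and 23.7% lower, 50.5% in either direction. The share of parents called over all 295 pairs is not given here. Without Gm19026 the Pearson correlation was 0.671. By identity, the Spearman correlation was 0.746 for 46 identical pairs, 0.783 for 134 pairs of 99% to under 100%, 0.67 for 81 pairs of 97% to under 99% and 0.62 for 34 pairs below 97%. In the same order, the Pearson correlations were 0.693, 0.809, 0.696 and 0.193, with Gm19026 in the last band. The median absolute differences were 0.0992, 0.0943, 0.0767 and 0.0777, so by this measure closer copies were not more like their parents. Whether reads of the parent were counted on the copy was not tested.

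**Figure D4:**
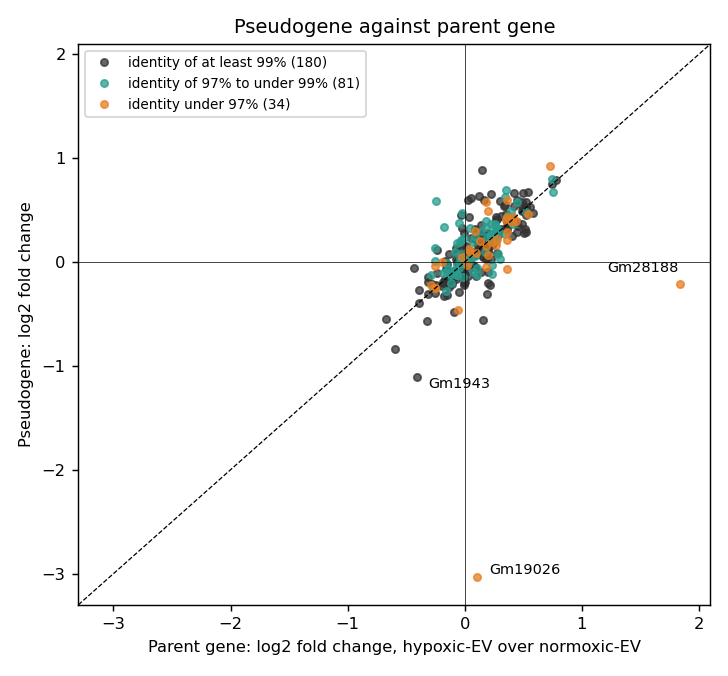
Log2 fold change of each processed pseudogene (vertical axis) against that of its parent gene (horizontal axis), both hypoxic-EV over normoxic-EV, for 295 pairs coloured by sequence identity; the dashed line marks equal change. Most pairs lie near the line, and Gm19026 (-3.04 against 0.11) and Gm28188 (-0.21 against 1.84) lie far from it.

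Gm28188 was the pair with the parent of largest increase. Ankrd37, a gene known as a target of hypoxia-inducible factor, had 6.071, 6.168 and 5.201 CPM in hypoxic-EV, against 1.733, 1.458 and 1.642 CPM in normoxic-EV, a log2 fold change of 1.84 (adjusted p = 2.52e-08 by edgeR). Its copy Gm28188, with an identity of 89.96%, had 5.245, 4.741 and 3.696 CPM in hypoxic-EV and 4.72, 5.773 and 5.193 CPM in normoxic-EV, which overlap (log2 fold change -0.21, adjusted p = 0.287 by edgeR). Among called copies whose parent was not called, Gm5526 had 0.62 (adjusted p = 0.00535 by edgeR) beside 0.05 for the myosin light chain gene Myl6, and Gm14117 had 0.60 (adjusted p = 0.00321 by edgeR) beside 0.03 for Atpaf1. Gm6563 had -0.31 (adjusted p = 0.00175 by edgeR) beside 0.20 for Sarnp (adjusted p = 0.13 by edgeR). A call in the copy and none in the parent does not show that they differ, and these differences were not tested.

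Some copies had more signal per length than the gene they came from. By the deposited FPKM, which divides counts by length and library total, copies had a median of 27.8% of their parent's level (quartiles 6.23% and 102%), and 75 of 297 stood above it. By CPM, which is not divided by length, the median was 6.02% of the parent (quartiles 1.79% and 18%), and 22 of 297 stood above it. Gm13394 had 1449 ± 174 FPKM in hypoxic-EV and 1002 ± 20.5 FPKM in normoxic-EV, while Gapdh had 30.7 ± 0.481 FPKM in hypoxic-EV and 21.4 ± 0.701 FPKM in normoxic-EV. The share of counts that Gm13394 took of the pair was nearly constant, 90.86% to 92.48% in hypoxic-EV libraries and 91.65% to 92.07% in normoxic-EV libraries. Gm15772, a copy of Rpl26, had 2464 ± 74.1 FPKM in hypoxic-EV and 2086 ± 53.8 FPKM in normoxic-EV, and Rpl26 had 48.6 ± 2.35 FPKM in hypoxic-EV and 41.3 ± 5.08 FPKM in normoxic-EV. Copy and parent changed alike in this pair too (log2 fold changes of 0.24 and 0.23). Rps10-ps2 had 398 ± 33.2 FPKM in hypoxic-EV and 376.8 ± 15.6 FPKM in normoxic-EV, and Rps10 had 1.053 ± 0.0645 FPKM in hypoxic-EV and 1.06 ± 0.224 FPKM in normoxic-EV. How multi-mapping reads were counted is not stated by the labels or notes, so counts within such pairs cannot be assigned with certainty.

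**Figure D5:**
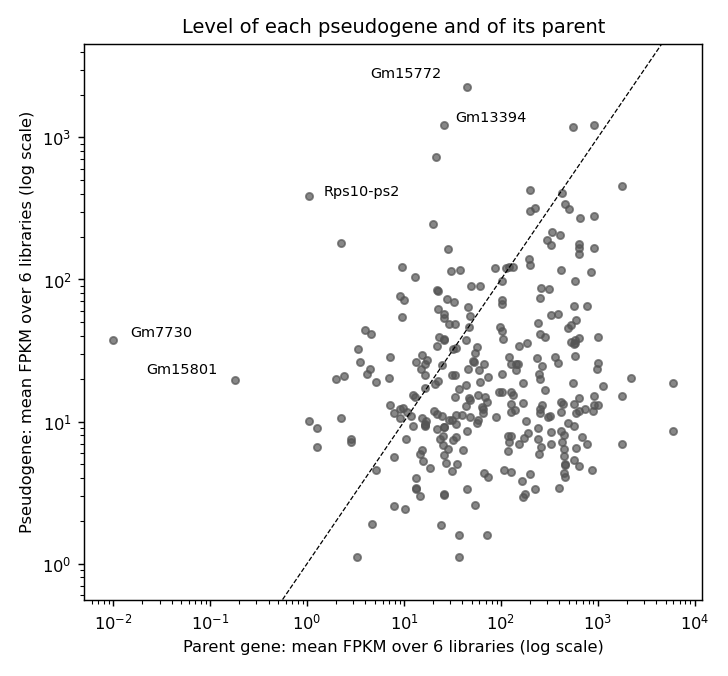
Mean FPKM over the 6 libraries of each processed pseudogene (vertical, log scale) against that of its parent gene (horizontal, log scale), for 297 pairs; the dashed line marks equal levels. Of these, 75 lie above the line, among them Gm13394, Gm15772 and Rps10-ps2.

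The pseudogenes were also sorted by their position relative to other genes. Of 196 tested pseudogenes that overlap no other gene body, 52 were higher and 16 lower, with a median log2 fold change of 0.11. Of 49 inside or across a gene on the same strand, 13 were higher and 2 lower (median 0.12), and of 54 that meet a gene on the opposite strand only, 17 were higher and 2 lower (median 0.10). For the last 2 kinds, reads of the overlapping gene and of the pseudogene cannot be told apart where they share bases. On the same strand no strand setting would separate them, and for the opposite strand no label or note gives the setting.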

How the data were processed

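Per the labels' protocols, poly(A) RNA was made into TruSeq libraries and sequenced from both ends on the Illumina HiSeq platform. Per the submitters' processing notes, HISAT2, featureCounts, DESeq2 and build GRCm39 were used. Not given in the sources used here were the versions, the annotation, the strandedness and how multi-mapping reads were counted. The authors deposited raw counts per gene, FPKM values, a signal of counts divided by 1 size factor per library (not used for results), and a table of their comparison with log2 fold changes, test scores (not used) and p-values. Depth was 16751665 to 23422328 counts per library.

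Tests on the counts used edgeR 4.0.16 under R 4.3.3 (filterByExpr with a minimum count of 10 and a minimum total of 15, TMM scaling, two-sided quasi-likelihood F-test, Benjamini-Hochberg adjustment over all genes tested, threshold 0.05). Groups were taken from the treatment in the labels. CPM per library are TMM-scaled, and the limit of 3 CPM for a member used plain library totals. The steps were tested on simulated data.

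A parent was the gene named by the symbol or description, and otherwise the protein-coding gene with the best BLAST+ 2.17.0 match of at least 80% identity over at least 50% of the pseudogene. The transcripts were those of GENCODE M21, which is build GRCm38, so sequences were matched by gene identifier and coordinates were taken from the deposited count table. The planned rule had asked for transcripts of the build of the files. Families were set by symbol patterns, which were corrected after the data were seen. Members, lists, families and the naming rule were chosen with earlier results of these data known. Named genes were the 10 of highest level, the 10 called of largest change in each direction, 2 of lowest p per family, those at the limit, those in the authors' table and their parents and hosts; other named copies were chosen after their values were seen. Alternatives were other scalings, no filter, DESeq2 1.42.0, other limits and subsets, a replicate block and leaving out each library.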

Additional observations from a re-analysis of the deposited data

How the results depend on the processing

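The number of pseudogenes called higher (82) was 53 among members of at least 10 CPM and 52 among those overlapping no other gene body, which are smaller sets of 150 and 196 tested pseudogenes; the shares were 35.3% and 26.5%, against 27.4%. Shares of all genes under these and the other limits on members are not given here. DESeq2's Wald test called 61 higher and 19 lower, and the other scalings and no filter on low counts gave 79 to 91 higher and 20 to 21 lower. Over all genes, DESeq2, these settings and the replicate block gave 2588 to 3095 higher and 2299 to 2835 lower, against 3023 and 2854 in the main fit. A limit of 1 CPM gave 109 higher and 30 lower of 527 pseudogenes, a mean of at least 100 counts gave 74 and 16 of 230, and leaving out copies of ribosomal protein genes gave 56 and 18 of 206. Leaving out single libraries gave 70 to 88 higher and 17 to 24 lower, a median log2 fold change from 0.1095 to 0.1268, a difference in the share of counts from 0.1563 to 0.1908 percentage points, and Spearman correlations of copy and parent from 0.699 to 0.713; over all genes it gave 2547 to 3014 higher and 2436 to 2764 lower. Without the pseudogene of highest level, the difference in share was 0.131 percentage points, and without Gm10095, a setting chosen after seeing the data like that without Gm19026, it was 0.1732. The replicate numbers did not pair the libraries (correlations of deviations between -0.0349 and -0.0187 over 13303 genes), and a replicate block gave 87 higher and 22 lower. No call was reversed among the 44 genes named by the rule and tested, and 31 of the 34 called were called under every alternative run on single genes; the exceptions were Llph-ps2, Gm10221 and Gm10250. Of 60 other tested copies, parents, hosts and markers named in the text, none had a call reversed and 37 of 43 called were called under every one of these alternatives; the exceptions were Actr3-ps, Gm10123, Rpl12, Rpl26, Itgam and Cd14. For these exceptions the cause was not tested. Not called otherwise, 6 of the 60 passed under at least 1 alternative: Gm13493, Gm6477, Pgk1-rs7, Rps10-ps2, Atp5h and Sarnp. Among those named by the rule, Gm12989, not called otherwise, was called without normoxic-EV replicate 3 (adjusted p = 0.017 by edgeR), Gm12070 without normoxic-EV replicate 2 (0.0393) and Gm10241, just outside the limit, without normoxic-EV replicate 1 (0.0196). Pseudogenes near 3 CPM rest on about 58 counts per library, which limits the changes that can be detected there.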
